A study of Mus musculus with 6 samples.

Results

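Pou5f1, Sox2, Nanog, Sall4 and Utf1 are the genes described here, 5 of the 25904 genes in the deposited expression table, picked by symbol and each found under 1 identifier. They were measured by RNA sequencing in F9 cells, a mouse teratocarcinoma line that grows as undifferentiated embryonal carcinoma and turns towards endoderm in all-trans retinoic acid (RA). Each of 3 F9 lines expressed a short hairpin RNA: shGFP, a control, shCtbp2, against the corepressor gene Ctbp2, or shRxr, against retinoid X receptor, the partner of RA receptors on DNA. Each line was left untreated (UT) or received 1 µM RA for 48 hours before harvest, in medium with charcoal-stripped serum, so the 6 groups hold 1 library each and no group has a replicate. No group was free of a hairpin, and whether a line is a single clone is not given in the sources used here.

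Pou5f1 (also called Oct4), Sox2 and Nanog are transcription factors that hold embryonic stem cells and embryonal carcinoma cells in the undifferentiated state. Pou5f1 and Sox2 bind side by side at a composite DNA element, found at many pluripotency genes including Nanog and their own genes, so that the factors sustain their own transcription. Sall4 is a zinc finger protein that binds with Pou5f1 and Nanog, and Utf1 is a chromatin-associated protein whose gene is a known target of Pou5f1 and Sox2. RA, acting through RA receptor and retinoid X receptor pairs, is known to switch this programme off during differentiation.

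The sequences upstream of the start sites are shown because 3 of the genes hold short motifs of that circuit or of RA receptors there. RefSeq promoter windows of 250 bases before the start (GRCm38.p6) were found for 4 of the 5 genes. Those shown are given 5′ to 3′ in the direction of transcription, with the match in capitals. In the Nanog window (chr6:122707315-122707564, plus strand) the capitals mark the Sox-Oct composite element on the reverse strand (TTGT, any 1 base, then ATGCAAA). In the Sox2 window (chr3:34649745-34649994, plus strand) they mark ATGCAAA, the octamer core bound by Pou5f1. In the Pou5f1 window shown (chr17:35505782-35506031, plus strand) they mark AGGTCA, the core motif of nuclear receptors. The other Pou5f1 window (chr17:35508557-35508806) held no match to any motif searched.
Nanog: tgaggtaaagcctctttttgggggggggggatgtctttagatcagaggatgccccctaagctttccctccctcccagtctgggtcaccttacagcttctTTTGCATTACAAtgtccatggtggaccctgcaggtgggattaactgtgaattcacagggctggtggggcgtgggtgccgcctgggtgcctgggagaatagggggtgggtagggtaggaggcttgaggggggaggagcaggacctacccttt
Sox2: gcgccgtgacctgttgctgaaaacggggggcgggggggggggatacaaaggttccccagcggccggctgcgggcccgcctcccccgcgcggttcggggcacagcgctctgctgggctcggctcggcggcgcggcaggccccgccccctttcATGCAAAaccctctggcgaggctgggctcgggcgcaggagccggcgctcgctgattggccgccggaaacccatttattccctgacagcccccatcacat
Pou5f1: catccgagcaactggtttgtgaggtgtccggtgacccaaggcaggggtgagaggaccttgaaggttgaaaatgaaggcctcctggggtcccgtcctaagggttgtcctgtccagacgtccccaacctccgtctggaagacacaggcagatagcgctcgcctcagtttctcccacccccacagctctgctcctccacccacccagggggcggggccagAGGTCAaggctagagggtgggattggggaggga
Motifs were searched on both strands, and every composite match also holds ATGCAAA. The composite was present in 11 of 32851 RefSeq windows (0.0335%), of which 2 were the overlapping windows of the start sites of Nanog. ATGCAAA was in 4.12% of all windows and AGGTCA in 14.0%, so the matches at Sox2 and Pou5f1 are of common kinds. AGGTCA also occurred in the Sox2 window, on the reverse strand, and in the other Nanog window. Exact direct repeats of AGGTCA (spacing of 1, 2 or 5 bases) had 0 matches in the members' windows. Such repeats were in only 0.0335%, 0.00913% and 0.00913% of all windows, so their absence here says little. Imperfect repeats were not searched. A match is a description of the letters and not of binding.

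Before RA the 5 genes stood at nearly the same levels in all 3 lines. Levels are normalised reads, that is, reads per 10000000 counted in genes. Pou5f1 (ENSMUSG00000024406, mm9 chromosome 17, 35642982 to 35647721) was at 18172 in shGFP_UT, 18524 in shCtbp2_UT and 18536 in shRxr_UT. Sox2 (ENSMUSG00000074637, chromosome 3, 34548927 to 34551383) was at 4845, 4616 and 4316 in the same order. Nanog (ENSMUSG00000012396, chromosome 6, 122657507 to 122664651) was at 6748, 7231 and 8245. The highest untreated library exceeded the lowest by 1.02-fold for Pou5f1, 1.12-fold for Sox2 and 1.22-fold for Nanog. Sall4 (ENSMUSG00000027547, chromosome 2, 168573832 to 168593443) was at 6144, 5531 and 6343, a range of 1.15-fold. Utf1 (ENSMUSG00000047751, chromosome 7, 147129688 to 147131011) was at 2432, 2450 and 2183, a range of 1.12-fold. None of the 5 genes differed 2-fold from shGFP in either untreated knock-down line, where 3.73% of the 12332 genes tested did so in shCtbp2 and 0.454% in shRxr.

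Per kilobase of transcript, the scale on which genes can be compared, the untreated order was Pou5f1, Nanog, Sox2, Utf1 and Sall4, and neighbours in that order did not overlap. Pou5f1 stood at 13340 to 13610 normalised reads per kb over the 3 untreated libraries, Nanog at 3052 to 3729, Sox2 at 2098 to 2355, Utf1 at 1779 to 1997 and Sall4 at 1090 to 1250. In RA the ranges widened to 6263 to 19230 for Pou5f1, 1474 to 3134 for Nanog, 719.6 to 1510 for Sox2, 901.8 to 1061 for Sall4 and 419.0 to 1466 for Utf1. Pou5f1 stayed above the others, Nanog and Sox2 overlapped, and Sall4 lay inside the ranges of Sox2 and Utf1.

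**Figure D1:**
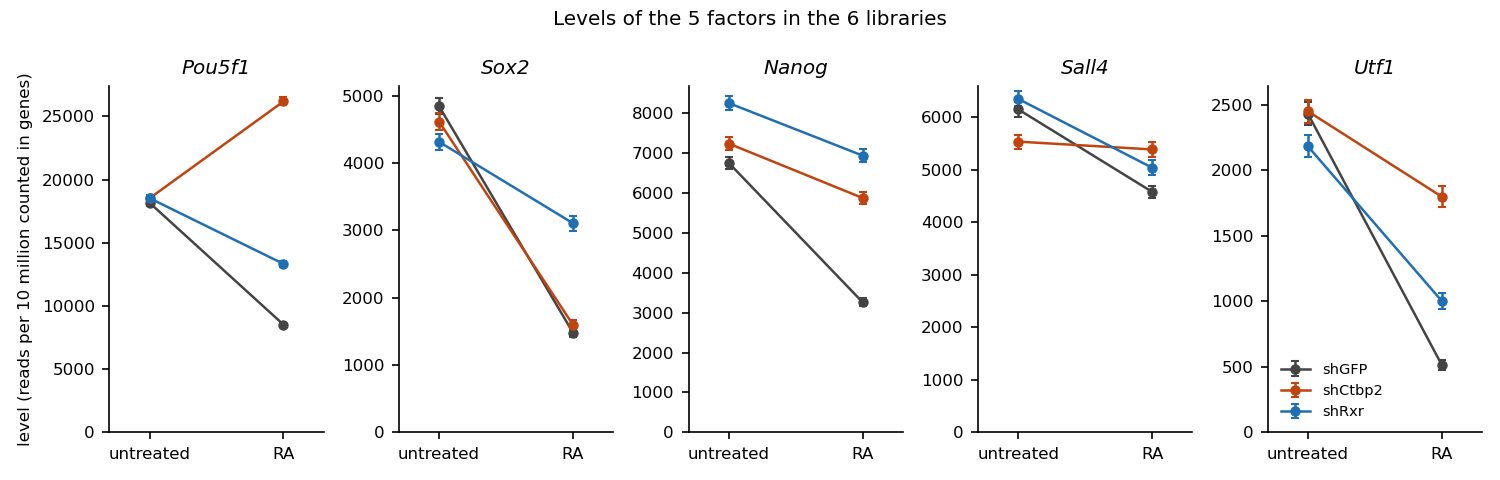
Normalised reads (reads per 10000000 counted in genes, linear axis from 0) of each of the 5 genes in the 6 libraries, 1 point per library, with 95% counting intervals as bars. The untreated points of a gene lie within 1.22-fold of each other, and the RA points spread by up to 3.50-fold, the range of Utf1.

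RA treatment addressed whether the pluripotency programme was switched off, and in the control line all 5 genes were lower after it. In shGFP Pou5f1 was at 8530 in RA, 2.13-fold lower than untreated (95% counting interval 2.08 to 2.18). Sox2 was at 1480, 3.27-fold lower (3.11 to 3.45), and Nanog at 3258, 2.07-fold lower (2.0 to 2.15). These intervals cover the counting of reads only, not differences between cultures. Utf1 was at 514, which is 4.73-fold lower (4.35 to 5.15) and the widest of the 5 differences in shGFP, and Sall4 was at 4575, 1.34-fold lower (1.3 to 1.39). Lower by any amount were 42.4% of all genes tested. Lower by 2-fold or more were 4 of the 5 genes, against 7.07% of all genes tested, while 13.4% of genes were higher by that size. The median log2 change of the 5 genes in shGFP was -1.09, beside 0.12 over all genes tested. In RNA from whole cultures, fewer cells that express a gene and less RNA of it per cell cannot be told apart.

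In the shCtbp2 line Sox2 was at least 2-fold lower after RA, and Utf1 was so only after a correction for GC content and transcript length. Sox2 was at 1598 in shCtbp2_RA, 2.89-fold lower than untreated (2.73 to 3.06). Pou5f1 was at 26185, its highest level in the 6 libraries and 1.41-fold higher than untreated (1.39 to 1.44), a direction that turned to lower (log2 -0.40) after that correction. Utf1 was at 1798, 1.36-fold lower (1.28 to 1.45), and 2.99-fold lower after it. Nanog was at 5868, 1.23-fold lower (1.19 to 1.27), and turned to higher (log2 0.15) after the same correction, which itself moved the median RA change of all genes by -0.11 in shCtbp2 and -0.19 in shGFP. Sall4 was at 5382, with a fold of 1.03 lower (0.991 to 1.07) that turned to higher (log2 0.07) with upper-quartile scaling. Of all genes tested 19.3% were lower by 2-fold or more and 15.1% higher in this line, so 1 of 5 members is near that share. After the correction 2 of 5 members were lower by that size, against 8.04% of 12133 genes. The median log2 change as deposited was -0.30 for the 5 genes against 0.07 over all genes tested.

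In the shRxr line all 5 genes were lower after RA, by smaller folds than in shGFP. Pou5f1 was at 13335 in shRxr_RA, 1.39-fold lower (1.36 to 1.42), and Sox2 at 3107, also 1.39-fold lower (1.33 to 1.45). Nanog was at 6930, 1.19-fold lower (1.15 to 1.23), and Sall4 at 5034, 1.26-fold lower (1.22 to 1.31). Utf1 was at 1002, 2.18-fold lower (2.02 to 2.34), the only member past 2-fold. In this line 40.3% of all genes tested were lower by any amount, 1.46% were lower by 2-fold or more and 5.26% higher. The members' median log2 change was -0.47, against 0.09 over all genes.

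Tested over the 3 lines, with lines standing in as replicates, Sox2 and Utf1 fell with RA and the other 3 genes did not pass. In limma, Sox2 fell by 1.23 on the log2(level + 10) scale (SE 0.29, adjusted p = 0.012), and it was lower in 3 of 3 lines. Utf1 fell by 1.26 (SE 0.32, adjusted p = 0.019), again in 3 of 3 lines. The log2 estimate was -0.36 for Pou5f1 (SE 0.31, adjusted p = 0.47 in limma), -0.53 for Nanog (SE 0.27, adjusted p = 0.20) and -0.27 for Sall4 (SE 0.25, adjusted p = 0.51). RA lowered 4.63% of the 12332 genes tested and raised 10.8%, so 2 of 5 is to be read against 4.63%. Of all calls 69.9% were raised, a share of 57.7% with median-of-ratios scaling and 45.5% after the GC and length correction. That correction also brought Pou5f1 (log2 -0.81, SE 0.23, adjusted p = 0.035 in limma) and Sall4 (log2 -0.60, adjusted p = 0.024) past the threshold. It lowered 1869 of 12133 genes, so the 4 members called after it are to be read against that larger share. Without the shCtbp2_RA library the Pou5f1 estimate was -0.78 (SE 0.21, adjusted p = 0.073 in limma) and the Sox2 call was lost (log2 -1.09, adjusted p = 0.072), and without the shGFP line neither Sox2 (adjusted p = 0.51) nor Utf1 (log2 -0.78, adjusted p = 0.70) passed.

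As deposited, the lines differed most in their RA response for Pou5f1, Sox2 and Utf1. The spread left after line and treatment (residual SD on the log2 scale) was 0.63 for Utf1, 0.57 for Pou5f1, 0.47 for Sox2, 0.32 for Nanog and 0.14 for Sall4, beside a median of 0.31 over all genes tested. After the GC and length correction Nanog differed between lines about as much as Pou5f1. Its log2 changes in shGFP, shCtbp2 and shRxr were then -1.05, 0.15 and -0.38, and those of Pou5f1 -1.48, -0.40 and -0.53. With 1 library a group, these differences in response have no test.

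**Figure D2:**
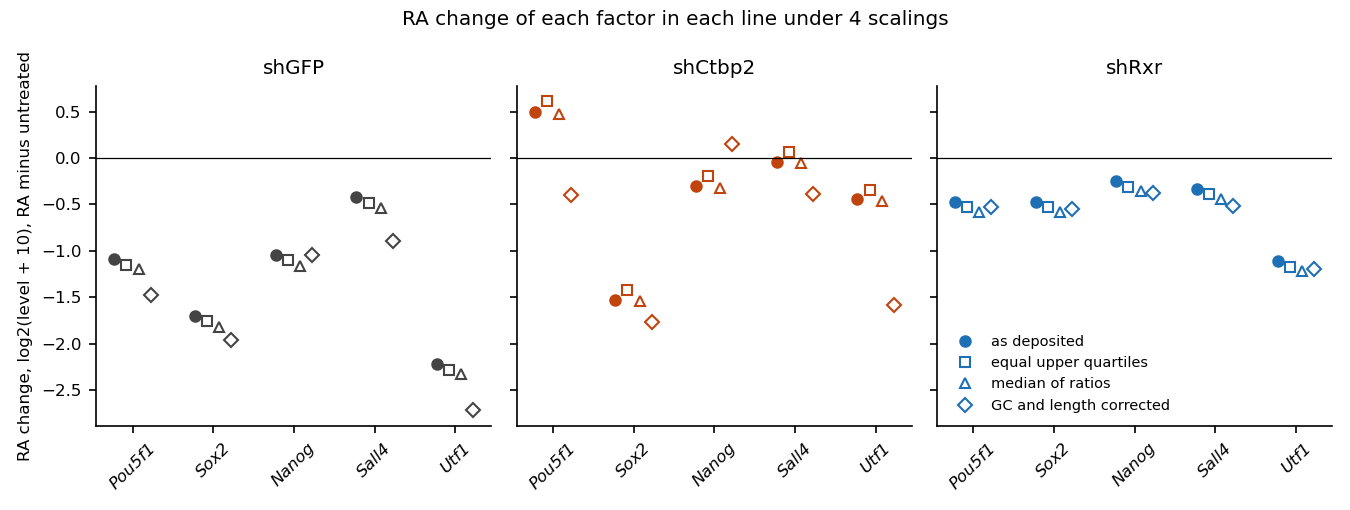
Log2 change with RA, on the log2(level + 10) scale, of the 5 genes in each of the 3 lines, as deposited, with upper-quartile and median-of-ratios scaling, and corrected for GC content and transcript length (4 markers). Uncorrected, all 5 genes lie below 0 in shGFP and shRxr, and in shCtbp2 Pou5f1 lies at 0.50 and, corrected, at -0.40.

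The next question was whether less Ctbp2 or less retinoid X receptor changed the members' levels in RA. All 5 genes were higher than in shGFP_RA in both knock-down lines, with and without the GC and length correction. Higher by any amount were 41.3% of 12133 genes in shCtbp2_RA and 42.6% in shRxr_RA, and 51.6% and 51.8% after the correction. As deposited, Sox2 in shCtbp2_RA stood above only 63.8% of genes tested. Sall4 stood above 70.0% in shCtbp2_RA and 68.9% in shRxr_RA. Both comparisons share the shGFP_RA library, so its own deviation enters both. Ctbp2 and Rxra were low where the labels place the hairpins, but the labels do not name the Rxr gene that is targeted. Ctbp2 was at 210.1 and 55.4 in shCtbp2_UT and shCtbp2_RA, against 1811 and 701 in shGFP, and Rxra, the retinoid X receptor alpha gene, was at 73.7 and 82.4 in shRxr against 520 and 805. Rxrb, the beta gene, was not low in shRxr, at 638 and 546 against 605 and 673.

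Against shGFP_RA, Utf1 was 3.50-fold higher in shCtbp2_RA (3.2 to 3.82) and Pou5f1 3.07-fold higher (3.0 to 3.14). Nanog was 1.80-fold higher (1.73 to 1.87), Sall4 1.18-fold (1.13 to 1.22) and Sox2 1.08-fold (1.01 to 1.15). So 2 of 5 were at least 2-fold higher, against 3.18% of all genes tested. In shRxr_RA Nanog was 2.13-fold higher than in shGFP_RA (2.05 to 2.21) and Sox2 2.10-fold (1.98 to 2.22). Utf1 was 1.95-fold higher (1.77 to 2.15), Pou5f1 1.56-fold (1.52 to 1.60) and Sall4 1.10-fold (1.06 to 1.14). Again 2 of 5 were at least 2-fold higher, against 3.74% of genes.

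In RA, Sox2 was lower in shCtbp2 than in shRxr with and without the GC and length correction, but its difference was of an uncommon size only after it. Pou5f1 and Utf1 set these lines apart only before the correction. Between the libraries in RA, Pou5f1 was 1.96-fold higher in shCtbp2 than in shRxr (1.92 to 2.01), whereas Sox2 was 1.94-fold lower (1.83 to 2.07). Utf1 was 1.79-fold higher in shCtbp2 (1.66 to 1.94). Before the correction 22.2% of 12133 genes were at least 2-fold lower in shCtbp2_RA than in shRxr_RA, and 5.92% at least 2-fold higher. In this difference Sox2 stood above 23.7% of genes tested, Pou5f1 above 93.4% and Utf1 above 89.0%. After the correction Sox2 was 2.14-fold lower in shCtbp2_RA than in shRxr_RA, while Pou5f1 was 1.14-fold higher and Utf1 differed by 1.01-fold. Lower by 2-fold or more were then 3.38% of genes, and higher 3.87%. Before the correction the Nanog levels, 5868 and 6930, and the Sall4 levels, 5382 and 5034, lay closer together. After it Nanog turned from lower to higher in shCtbp2_RA, by 1.23-fold, a wider difference than that of Pou5f1 or Utf1. Sall4 was then 1.05-fold higher.

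Over both treatments, with treatments standing in as replicates, limma called 0 of the 5 genes for shCtbp2 (adjusted p from 0.54 for Utf1 to 0.98 for Sox2) and 0 for shRxr (adjusted p = 1.0 for all 5). For shCtbp2 1 member, Utf1, was under 0.05 unadjusted in limma (log2 0.90, SE 0.39), and for shRxr 0. With voom on the recovered reads limma also called 0 for both, with 2 and 0 members under 0.05 unadjusted. The calls over all genes tested were 0.146% for shCtbp2 and 0.00811% for shRxr.

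GC content moved with the shCtbp2 result. Across 12133 genes, the deviation of a library from the mean of all 6 correlated with transcript GC content. Spearman's rho was 0.68 in shCtbp2_RA and 0.25 in shGFP_RA, and -0.45 to -0.41 in the other 4 libraries. The deviations of a gene cancel out over the 6 libraries, so the negative values are not to be read as separate GC trends. Transcript GC content was 57.6% for Pou5f1, 63.5% for Utf1, 53.8% for Sall4, 50.5% for Sox2 and 45.8% for Nanog. The 1052 genes within 1 percentage point of the GC content of Pou5f1 had a median log2 change with RA of 0.70 in shCtbp2, above the 0.50 of Pou5f1 itself. In the difference between shCtbp2_RA and shGFP_RA, however, the median of those genes was 0.29 and 98.8% of them lay below Pou5f1, at 1.62. For Utf1 97.5% of 119 such genes lay below it, for Nanog 98.6% of 1130, for Sox2 63.7% of 1280 and for Sall4 54.0% of 1330.

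After the GC and length correction the log2 differences between shCtbp2_RA and shGFP_RA were 1.29 for Nanog, 1.27 for Utf1, 1.12 for Pou5f1, 0.42 for Sall4 and 0.11 for Sox2. Past 2-fold were then 3 of 5, against 3.59% of 12133 genes. Between shRxr_RA and shGFP_RA they were 1.28 for Utf1, 1.21 for Sox2, 0.99 for Nanog, 0.92 for Pou5f1 and 0.36 for Sall4, with 2 of 5 past 2-fold against 1.61%. The corrected RA response of shCtbp2 minus that of shGFP was 1.07 for Pou5f1 (1.59 uncorrected), 1.19 for Nanog (0.75) and 1.14 for Utf1 (1.78). It was 0.19 for Sox2 (0.18) and 0.50 for Sall4 (0.39). For shRxr the corrected differences in response were 0.94 for Pou5f1, 1.41 for Sox2, 0.67 for Nanog, 0.37 for Sall4 and 1.52 for Utf1, against 0.62, 1.23, 0.80, 0.09 and 1.10 uncorrected. The higher levels of Pou5f1, Nanog and Utf1 in shCtbp2_RA than in shGFP_RA were thus present with and without the correction, while the RA direction of Pou5f1 within the shCtbp2 line was not. GC bias of a library and an RA response that follows GC content cannot be told apart here.

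The balance of Pou5f1 to Sox2 shifted most with RA in shCtbp2, as deposited and after the GC and length correction. The ratio of Pou5f1 to Sox2 reads, which are not scaled for length, was 3.75 in shGFP_UT and 5.76 in shGFP_RA. It went from 4.01 to 16.4 in shCtbp2 and stood at 4.29 both before and after RA in shRxr. The ratio of Pou5f1 to Nanog was 2.69 and 2.62 for shGFP, 2.56 and 4.46 for shCtbp2, and 2.25 and 1.92 for shRxr. The correction cut the log2 change of Pou5f1 to Sox2 in shCtbp2 from 2.02 to 1.37, beside corrected changes of 0.49 in shGFP and 0.02 in shRxr. It turned that of Pou5f1 to Nanog in shCtbp2 from 0.80 to -0.55, beside corrected changes of -0.43 in shGFP and -0.15 in shRxr. Sox2 to Nanog was lower in RA in every line, from 0.718 to 0.454 for shGFP, 0.638 to 0.272 for shCtbp2 and 0.524 to 0.448 for shRxr. Pou5f1 to Utf1 was higher in RA in every line, at 16.6, 14.6 and 13.3 against 7.47, 7.56 and 8.49 untreated, and both directions held after the correction.

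**Figure D3:**
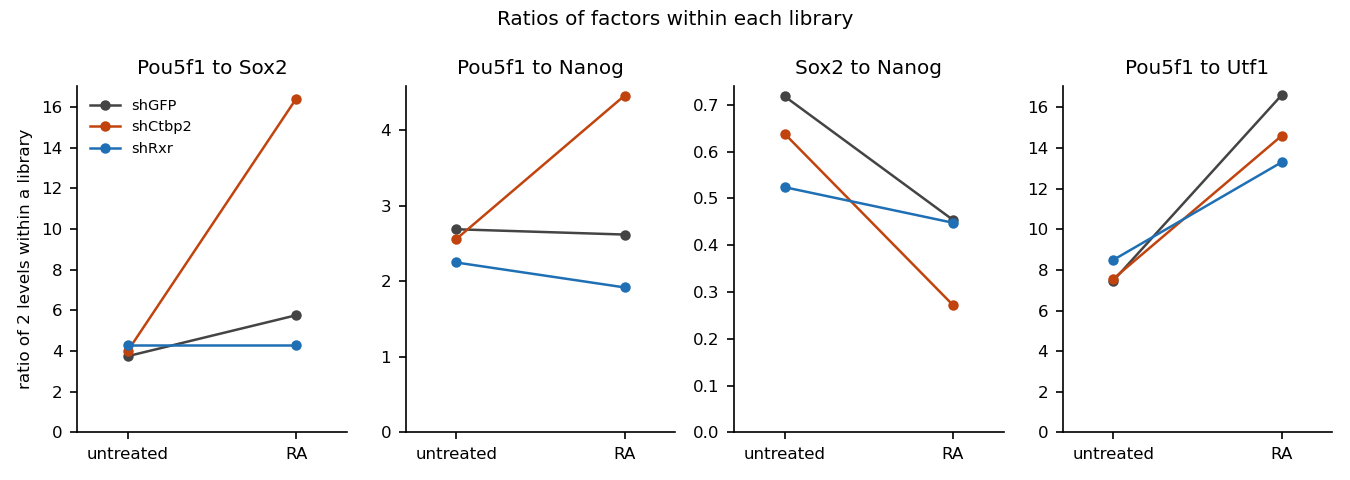
Ratios of normalised reads between pairs of the genes (linear axis from 0) in the 6 libraries, untreated and in RA for each line, not corrected for GC content. The ratio of Pou5f1 to Sox2 lies between 3.75 and 5.76 in 5 libraries and at 16.4 in shCtbp2_RA.

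Profiles over the 6 libraries differed among the members. Likeness was the root mean square difference of centred log2 profiles, searched over 10824 genes with a mean of at least 50. Pou5f1 was 0.73 from Sox2 and 0.37 from Nanog, and Nanog was 0.32 from Sall4. Nearest to Pou5f1 were Rfx2 (0.09), Klf2 (0.10) and Ckb (0.12). Klf2, a Krüppel-like factor of the pluripotency network, was at 4232 and 2223 in shGFP, then 3896 and 6104 in shCtbp2, then 4127 and 2955 in shRxr, so it too was highest in shCtbp2_RA. Its GC content is 61.6%, and like Pou5f1 its RA change in shCtbp2 turned from higher (log2 0.65) to lower (-0.38) after the correction. Among the nearest to Sox2 were Gm6871 (0.06), Rnf138 (0.08) and Triml1 (0.10), to Nanog Dusp27 (0.09) and Gm867 (0.12), and to Utf1 Zfp296 (0.11), Slc28a1 (0.13) and Tcea3 (0.13). Sall4, which varied least, had Med30, Recql4 and Pdhb at 0.04, and at 0.37, 0.12 and 0.20 after the correction. On corrected profiles Klf2 was 0.07 from Pou5f1, Triml1 0.13 from Sox2 and Zfp296 0.10 from Utf1. Gm6871 was 0.43 and Rnf138 0.55 from Sox2, and Dusp27 0.38 and Gm867 0.51 from Nanog. Between members, the corrected distances were 0.50 for Pou5f1 and Sox2, 0.22 for Pou5f1 and Nanog and 0.29 for Nanog and Sall4.

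Rows that overlap the members were low. Sox2ot, a non-coding RNA gene that overlaps Sox2, had 36 and 9 reads in the shGFP libraries, 43 and 0 for shCtbp2, and 30 and 17 for shRxr, far under Sox2. Gm14261, which overlaps Sall4, was at 1.98 to 8.37 normalised reads. The strand setting of the counting is not given in the sources used here, so reads of overlapping genes may not be told apart. Tcf19, which lies 1958 bases from Pou5f1 in mm9, rose with RA (adjusted p = 0.005 in limma), from 42.7 to 200 in shGFP and from 59.6 to 186 in shCtbp2. Slc2a3, the glucose transporter gene after Nanog, was at 19100 to 28900 and did not pass (adjusted p = 0.79), with log2 changes of -0.45 in shGFP, 0.32 in shCtbp2 and -0.24 in shRxr.

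The wider pluripotency network fell with RA in part, and part of it was higher in both knock-down lines in RA. Of 18 other pluripotency transcription factors 17 were tested, 11 fell and 0 rose, with median log2 changes of -1.61, -0.97 and -0.53 in shGFP, shCtbp2 and shRxr. Otx2, a factor of the primed state (log2 -3.82), and Foxd3, a forkhead repressor (-1.74), fell. So did Zfp42 (Rex1), a marker of naive cells (-1.52), and Nr0b1 (Dax1), an orphan nuclear receptor (-1.28). Of 15 known downstream genes of Pou5f1, Sox2 and Nanog 6 fell and 0 rose, with medians of -1.07, -1.06 and -0.23. Those that fell included Lefty2, a Nodal antagonist (log2 -2.14), Tdgf1, the Nodal co-receptor Cripto (-2.12), and Fgf4, a growth factor under an enhancer bound by Pou5f1 and Sox2 (-1.46). Zfp42 stands in both lists. Without the shCtbp2_RA library 6 and 4 genes fell, without the shGFP line 1 and 1, and the second list had 9 after the GC correction. Over all genes tested 4.63% fell and 10.8% rose. Those are the shares for the counts of every list with all 6 libraries and no correction. After the GC and length correction 1869 of 12133 genes fell, the share for the corrected counts. Counts with a line or library left out are not to be read against either.

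Of the 31 genes in these lists, 10 were at least 2-fold higher in shCtbp2_RA than in shGFP_RA, where the background was 3.18%. They were, named here after their values were seen, Tcl1, Foxd3, Dppa5a, Nr0b1, Prdm14, Fgf4, Klf2, Esrrb, Tdgf1 and Otx2. After the GC and length correction the same 10 genes were past 2-fold, against 3.59% of 12133 genes. The values of Tcl1, an Akt co-activator, were 163 in shGFP_RA, 900 in shCtbp2_RA and 410 in shRxr_RA, and those of Dppa5a, an RNA-binding protein of stem cells, 2480, 8490 and 4170. Only Spp1, a secreted phosphoprotein, was at least 2-fold lower in shCtbp2_RA (14.8% of all genes were), and 0 were after the correction. In shRxr_RA 10 of the 31 were 2-fold or more above shGFP_RA and 0 as far below it, against 3.74% and 2.62% of all genes, and 10 were so after the correction too. Above shGFP_RA by any amount were 25 of 31 in shRxr_RA, where 42.6% of genes were, and 14 of 31 in shCtbp2_RA, where 41.3% were. Like Sox2, Zfp42 was low in both shGFP_RA (2200) and shCtbp2_RA (2130) and higher in shRxr_RA (6200).

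**Figure D4:**
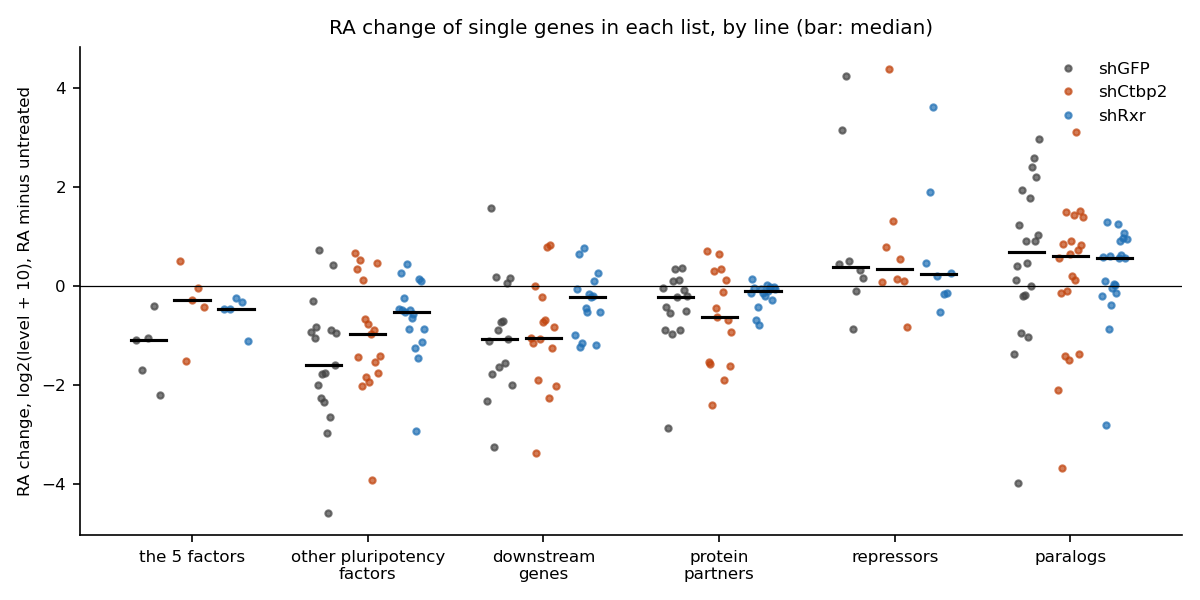
Log2 change with RA in each line for the genes of the lists, 1 point per gene, with the list's median. In the lists of other pluripotency factors and downstream genes the shGFP medians lie at -1.61 and -1.07. The shCtbp2 medians lie at -0.97 and -1.06 and the shRxr medians at -0.53 and -0.23.

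Partners, repressors and paralogs moved less uniformly. Of 15 protein partners of Pou5f1 and Nanog 1 fell, Rif1, a chromatin and replication timing factor (log2 -1.99), and 0 rose, a share near the 4.63% of all genes, with medians of -0.24, -0.64 and -0.11 in shGFP, shCtbp2 and shRxr. After the GC correction 6 fell, where 1869 of 12133 genes did. Of 8 tested repressors of Pou5f1 or Nanog 2 rose, the endoderm factor Gata6 (log2 4.07) and the orphan receptor Nr2f2 (log2 1.94), and 0 fell. Gata6 was at 739 in shGFP_RA, 435 in shCtbp2_RA and 447 in shRxr_RA, from 29.8, 11.6 and 27.6 untreated, and Nr2f2 was at 122, 26.7 and 64.3 in RA. Of 20 paralogs 7 rose and 3 fell, against 10.8% and 4.63% of all genes. The endoderm genes Sox7 (log2 1.59) and Sox17 (1.48) rose while Sox2 fell, and Sox3, the close relative of Sox2, rose (2.13) from 20.1 to 149 in shGFP and from 21.5 to 260 in shCtbp2. Pou4f2 (log2 -3.5) and Pou2f1 (-1.24) fell. Without the shCtbp2_RA library 3 paralogs rose and 2 fell.

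Markers of the labelled cell type were mixed. Of 5 embryonal carcinoma markers Tdgf1 fell, Alpl and Fut4 rose, and Cdh1 and Dppa5a did not pass. Summed parietal endoderm markers, 4 of 5 tested of which rose, went from 8341 to 29210 normalised reads in shGFP, from 9346 to 24290 in shCtbp2 and from 7744 to 15430 in shRxr. Their part in the members' lower levels was not tested. The visceral endoderm markers Afp, Ttr and Apoa1 stood at 0 to 4.50, but Amn went from 59.6 to 150 in shCtbp2, and the list's sum was 26.6 to 63.7 untreated and 42.2 to 157 in RA, highest in shCtbp2_RA. Of blood markers Ptprc was at 0 to 0.837, while Laptm5 (1100 to 1940) and Cd68 (69.5 to 131) were present. The fibroblast markers Dcn and Col1a1 stood at 0 to 2.01 and 10.8 to 24.0. Among other fibroblast markers Pdgfrb rose and Thy1 fell, and the sum of the list was 131.4 to 172 untreated and 392.7 to 518.7 in RA. Of the neuron markers, neither Tubb3 (adjusted p = 0.30 in limma) nor Elavl3 (adjusted p = 0.069) passed.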

How the data were processed

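RNA of F9 cells was sequenced from TruSeq libraries on an Illumina HiSeq, per the labels' protocols, with groups taken from the labels. TopHat 1.4, HTSeq and mm9 are named in the submitters' processing notes. The deposited log2 values are the authors' reads per 10000000 counted in genes plus 1. This was read from the values, since whole reads were recovered for 100% of them, within 1e-06. Depth was 9955808 (shRxr_RA) to 13322506 reads (shGFP_RA), and 0 columns were left unused.

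Folds are ratios of unlogged levels with 95% Clopper-Pearson intervals of the recovered reads. Log2 changes are on log2(level + 10), which understates changes of low genes. The test covered the 12332 genes whose mean was 20 or more. A trend fit with limma 3.58.1 under R 4.3.3 took line and treatment, with 2 residual and 11.2 prior degrees of freedom. Its p-values were Benjamini-Hochberg adjusted over every tested gene and called under 0.05. With lines or treatments in place of replicate cultures, p-values also carry differences between lines. On simulated data 99% of 100 genes changed 2-fold by RA alike in every line were recovered among 12332. The simulated noise was set and not fitted to these data. For well-expressed genes it was smaller than their median residual SD. Recovery was not tested for genes whose RA response differs between lines, such as Pou5f1 and Utf1 (residual SD 0.57 and 0.63, median 0.31). The 99% is therefore not to be read as the recovery in these data, nor as that of the members that were not called. The GC and length correction used splines on GENCODE transcripts (98.4% of genes tested). Promoter sequences are RefSeq's. Other steps ran in Python 3.11.15 with scipy 1.17.1, pandas 2.3.3 and numpy 2.4.6, and plots in matplotlib 3.10.9.

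The members and gene lists were chosen with earlier results of these data known. Named genes are the members, Ctbp2 and Rxra, the 3 nearest profiles of each member (1 of them is not reported here), neighbouring or overlapping rows, and up to 8 genes a list by size of change among those past the test or 2-fold. The alternatives were other pseudocounts, filters and scalings, the GC and length correction, voom on the recovered reads, and leaving out a line or the shCtbp2_RA library.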

Additional observations from a re-analysis of the deposited data

Results flagged for a closer look

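Pou5f1 moved opposite ways with RA in the lines. Its log2 change was 0.50 in shCtbp2, against -1.09 in shGFP and -0.47 in shRxr, with 1 library in each group. The difference was not tested, and after the GC and length correction the shCtbp2 value was -0.40.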

How the results depend on the processing

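RA raised 1327 genes and lowered 571. With a mean of at least 100 the counts were 566 and 246. Lowered genes numbered 862 with upper-quartile scaling and 944 with median-of-ratios scaling. After the GC and length correction 1869 of 12133 genes were lowered, and 4 members were called rather than 2. Leaving out a line or shCtbp2_RA gave 375 to 1747 raised, 89 to 1498 lowered and 0 to 2 members called, with fewer libraries in the fit. Among the values that turned, the RA effect on Pou5f1 was 0.01 without the shGFP line (-0.36 with all). Without the shCtbp2 line that effect kept its sign, at -0.78. The shCtbp2 effect on Sall4 turned to -0.13 without shCtbp2_RA (0.04 with it). Within shCtbp2, Pou5f1 was at -0.40 and Nanog at 0.15 after the GC correction, and Sall4 at 0.07 with upper-quartile scaling. The cause was not tested. Upper-quartile scaling raised the median RA change of all genes in shCtbp2 by 0.10, and median-of-ratios scaling moved it by -0.11 in shGFP. The lowest member level was 514 normalised reads (Utf1 in shGFP_RA), so depth limits only low neighbours such as Sox2ot. Line was a term of the fit, so RA was compared within lines. A further replicate block could not be fitted, since each group holds 1 library.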
